A study of Rattus norvegicus with 12 samples.

Results

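Laminins, nidogens and perlecan are the non-collagen proteins that, together with collagen IV, build the basement membrane, and 10 of their genes (*Lama1*, *Lama2*, *Lama4*, *Lama5*, *Lamb1*, *Lamb2*, *Lamc1*, *Nid1*, *Nid2* and *Hspg2*) were followed in the central nucleus of the amygdala (CeA) of rats exposed to ethanol vapor and of air-exposed rats. The genes were taken by name from a table of raw counts with 37209 genes, and all 10 passed the filter on low counts with which 20944 genes were tested. For 9 of them the row carries the gene symbol. *Hspg2* was read from the row LOC313641, whose number is the gene ID that RefSeq gives to *Hspg2*.

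The libraries were made from poly-A RNA of CeA punches of 12 male wild-type Sprague Dawley rats aged 14 to 16 weeks, with 1 library per rat. The 6 rats of the chronic intermittent ethanol (CIE) group breathed ethanol vapor for part of each day over several weeks and were killed at the end of the last vapor session. The 6 Control rats breathed air continuously and were otherwise handled like the CIE rats. CIE rats carry the numbers 1 to 6 and Control rats 7 to 12, so anything that follows the order of the numbers cannot be told apart from CIE, and cage membership of the rats is not given in the sources used here.

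A basement membrane is a thin protein sheet on which endothelial cells sit and which separates pericytes and astrocyte endfeet from them. A laminin is a trimer of an alpha, a beta and a gamma chain that assembles into a net on the cell surface, where it is held by integrins and dystroglycan. Collagen IV forms a second net, nidogens bridge the nets by binding the laminin gamma chain and collagen IV, and perlecan, a large heparan sulfate proteoglycan, binds both nidogen and laminin. In the brain these proteins lie almost only around vessels, under the pia and at the choroid plexus, and their transcripts come from endothelial cells, pericytes, perivascular and meningeal fibroblasts and astrocytes.

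Library totals lay between 61978486 and 78441691 counts for CIE rats and between 39082548 and 95647601 counts for Control rats. Over the whole table, 76 genes (0.363%) differed between the groups at 5% FDR in edgeR's quasi-likelihood test and 1740 (8.31%) at a nominal p value below 0.05, of which 51.9% were lower in the CIE group (39.7% when counts were scaled by library size only). CIE rat 6 stood apart from the other CIE rats. It had the highest value of its group in 8 of the 10 genes and in the summed markers of endothelial cells, mural cells, meningeal fibroblasts, astrocytes, oligodendrocytes and microglia, and results that rest on it are given with and without it. The levels of 10 markers of central amygdala neurons were read, and all 10 were tested. These data hold no other brain region, so the levels are a description and not a check of the CeA label. *Prkcd*, a kinase that marks a class of CeA neurons, had a mean of 31.7 ± 8.25 counts per 1000000 (CPM; SD, n = 6) in CIE rats against 34.9 ± 5.81 CPM in Control rats, and *Gad1*, an enzyme of GABA synthesis in all GABA neurons, 621 ± 60.2 against 621 ± 53.9 CPM. Of the 10 markers, 8 had a log2 fold change below 0, and the neuropeptide gene *Nts* was lower at a nominal p value below 0.05 (-0.46, FDR 0.584 in edgeR's test). The punches differed widely in *Ppp1r1b*, a gene that is abundant in the neighbouring striatum, with 423 ± 433 CPM in CIE rats against 367 ± 541 CPM in Control rats, and the part of this spread in the results was not tested.

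Of the 10 basement membrane genes, *Nid1* was the 1 gene that differed between the groups at 5% FDR, and it was lower in the CIE group. At this threshold 0.363% of all genes tested differed in either direction and 0.258% were lower in the CIE group. At a nominal p value below 0.05, *Nid1* and *Nid2* were lower and none of the 7 laminin chain genes or *Hspg2* passed, where 8.31% of all genes tested passed, 4.31% lower and 4% higher. The log2 fold change was below 0 in 7 of the 10 genes, with a median of -0.12 against 0.00096 over all genes tested, of which 49.7% were below 0. In 9 of the 10 genes the CIE and Control values overlapped. *Nid1* was the exception, and 0.893% of all genes tested showed no overlap, 0.554% with the CIE group below. Within a group, the coefficient of variation between rats ranged from 7.54% (*Lamb2*, Control) to 37.0% (*Nid2*, CIE). The counts of these genes ranged from 224 to 6275 per rat, where the counting error alone is 6.68% and 1.26% if each count is independent.

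**Figure D1:**
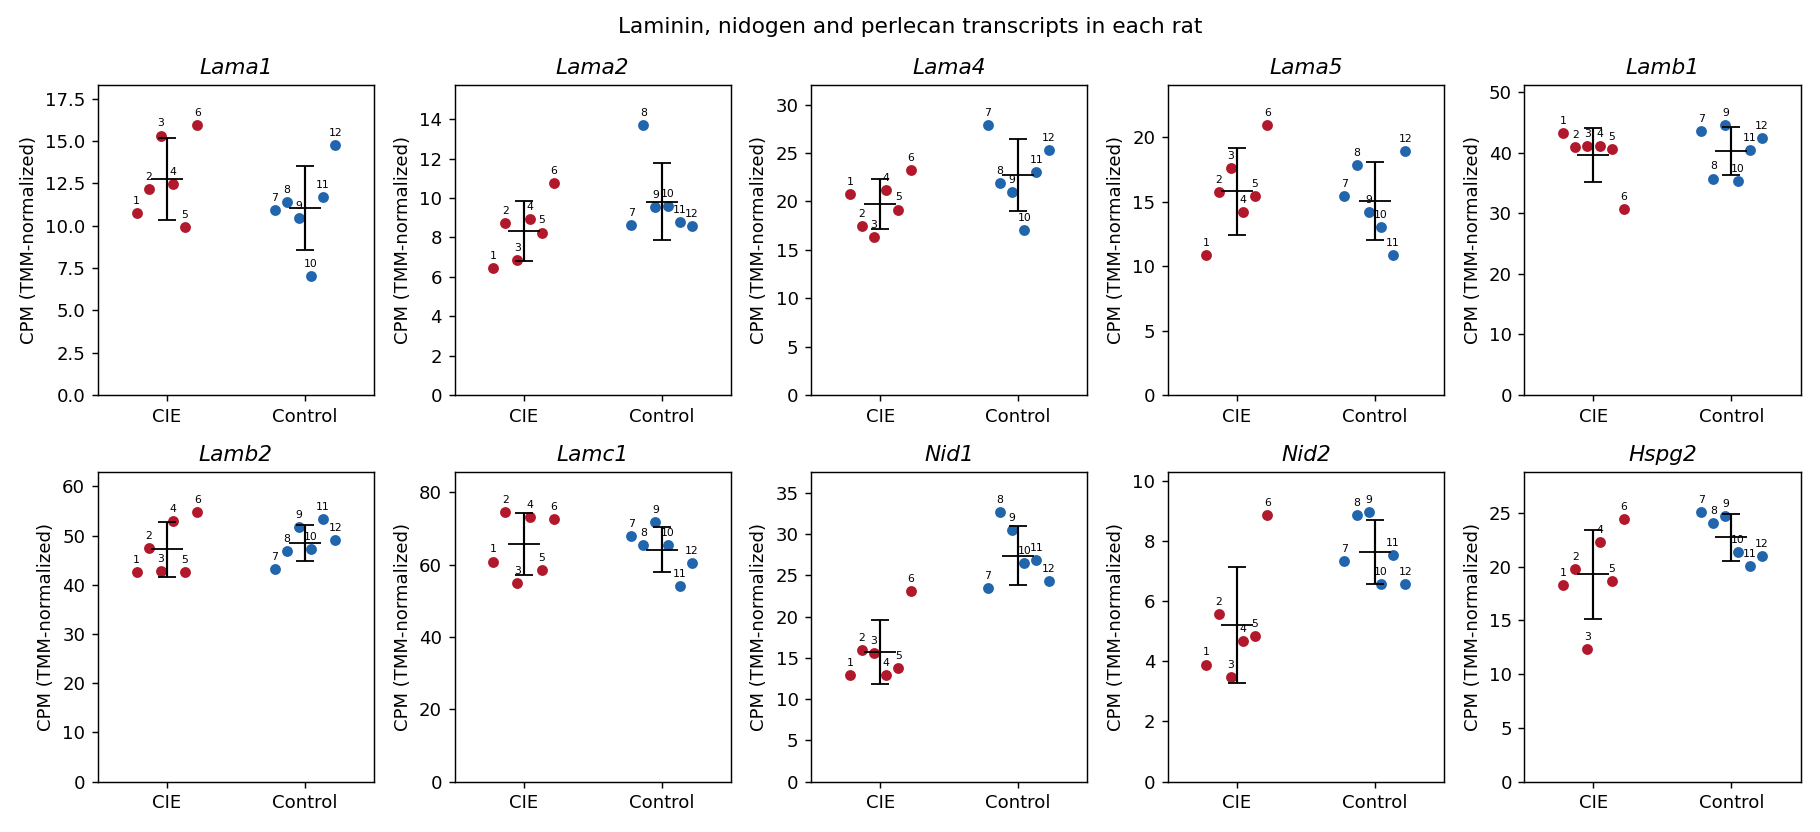
TMM-normalized CPM (vertical axis, from 0) of each gene in the 6 CIE rats (red) and the 6 Control rats (blue), with the rat number above each point and the group mean ± SD in black. The *Nid1* values of the CIE rats end at 23.1 CPM, below the lowest Control value of 23.5 CPM, and in the other 9 panels the groups overlap.

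*Nid1* encodes nidogen-1, also called entactin, the main bridge between the laminin and collagen IV nets. Its values in the CIE rats had a lowest of 12.9, a median of 14.7 and a highest of 23.1 CPM, and those in the Control rats 23.5, 26.7 and 32.65 CPM. Every CIE rat lay below every Control rat, with CIE rat 6 and Control rat 7 nearest to each other. The CIE mean of 15.7 ± 3.86 CPM (SD, n = 6) was 42.6% below the Control mean of 27.4 ± 3.54 CPM (SD, n = 6). The log2 fold change was -0.80 (SE 0.14, 95% interval -1.10 to -0.50), with an FDR of 0.0234 in edgeR's test at rank 46 of the 20944 genes. Leaving out any single rat gave a log2 fold change between -0.94 and -0.73. The FDR rose above 5% in 7 of these 12 fits, to between 0.0531 and 0.0752, when CIE rat 1, 2, 4 or 5 or Control rat 8, 9 or 11 was absent, and fell to 0.00138 without CIE rat 6.

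The sequences before the starts of *Nid1* and *Lamc1* are shown because nidogen-1 binds the laminin gamma chain that *Lamc1* encodes and because the ratio of these transcripts differed between the groups. The 250 bases before each start were taken from RefSeq on the build GRCr8, at chr17:93069036-93069285 on the plus strand for *Nid1* and chr13:68051987-68052236 on the minus strand for *Lamc1*. Capitals mark GC boxes, the letters GGGCGG on either strand, and neighbouring matches may overlap by a base.
Nid1: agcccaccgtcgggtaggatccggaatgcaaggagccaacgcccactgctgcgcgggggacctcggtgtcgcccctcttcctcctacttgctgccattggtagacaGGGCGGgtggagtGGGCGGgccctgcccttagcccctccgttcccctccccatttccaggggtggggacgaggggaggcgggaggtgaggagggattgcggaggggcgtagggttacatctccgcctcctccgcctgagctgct
Lamc1: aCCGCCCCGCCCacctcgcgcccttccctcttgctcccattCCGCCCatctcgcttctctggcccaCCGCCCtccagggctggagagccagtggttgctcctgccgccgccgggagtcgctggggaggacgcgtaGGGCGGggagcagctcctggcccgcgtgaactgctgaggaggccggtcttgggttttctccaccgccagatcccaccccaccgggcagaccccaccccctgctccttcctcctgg

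Both windows are rich in GC, at 68.0% for *Nid1* and 71.2% for *Lamc1*, with 17 and 19 CpG dinucleotides against a median of 5 over 33469 promoters of the same length. The *Nid1* window holds 2 GC boxes and that of *Lamc1* holds 5. Of the 8 genes with a promoter in the table, 6 hold a GC box (30.5% of all promoters do), 1 holds the TATA box letters TATAAA (*Lama4*, against 12.9% of all promoters), and none holds the ETS site letters CGGAAG (13.9% of all promoters). The *Lama1* window, at 44.8% GC, holds none of these letters. These matches are letters in a window and were not tied to the expression values.

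*Nid2* encodes nidogen-2, which shares the binding partners of nidogen-1. Its values had a lowest of 3.46, a median of 4.75 and a highest of 8.84 CPM in the CIE rats and 6.55, 7.42 and 8.95 CPM in the Control rats. In 5 of the 6 CIE rats *Nid2* was below every Control rat, whereas CIE rat 6 lay near the top of the Control range. The CIE mean was 5.21 ± 1.93 CPM (SD, n = 6) and the Control mean 7.63 ± 1.06 CPM (SD, n = 6). For this gene the log2 fold change was -0.55 (SE 0.20, 95% interval -0.97 to -0.13) at a nominal p value of 0.0147 and an FDR of 0.434 in edgeR's test. Without CIE rat 6 it was -0.77 (SE 0.14) with an FDR of 0.02645. With all rats, limma-voom with sample quality weights gave an FDR of 0.0498 and DESeq2 gave 0.217. The other scalings and filters and the surrogate variable gave an FDR between 0.3745 and 0.502 with all rats in edgeR's test.

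*Hspg2* encodes perlecan, which carries heparan sulfate chains that hold growth factors in the basement membrane. Its values had a lowest of 12.35, a median of 19.2 and a highest of 24.4 CPM in the CIE rats and 20.05, 22.7 and 25.1 CPM in the Control rats. CIE rats 1, 2, 3 and 5 lay below every Control rat, and CIE rats 4 and 6 lay within the Control range. The log2 fold change was -0.23 (SE 0.13, 95% interval -0.52 to 0.05) with an FDR of 0.695 in edgeR's test. CIE rat 3 had the lowest value, and without it the log2 fold change was -0.13.

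**Figure D2:**
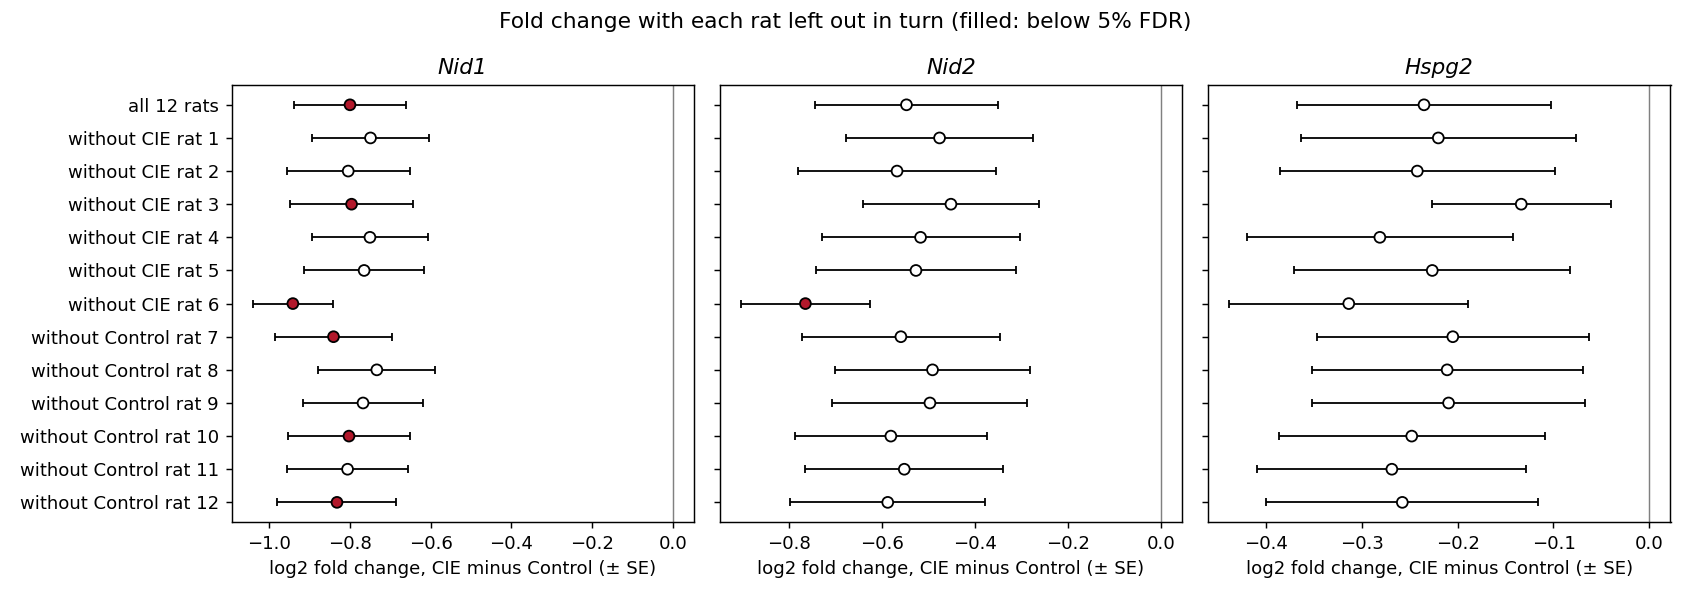
Log2 fold change of *Nid1*, *Nid2* and *Hspg2* (horizontal axes, CIE minus Control, bars ± SE) with all 12 rats and with each rat left out, filled where the FDR was below 5%. *Nid1* stays between -0.94 and -0.73 with 5 of the 12 reduced fits filled, and *Nid2* is filled only without CIE rat 6.

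None of the 7 laminin chain genes passed the nominal threshold in edgeR's test, and their median log2 fold change was -0.03. *Lamc1* encodes the gamma chain that most laminins of the vessel wall share. It had a lowest of 54.8, a median of 66.7 and a highest of 74.5 CPM in the CIE rats and 54.2, 65.3 and 71.9 CPM in the Control rats, so the ranges overlapped over most of their length. Its log2 fold change was 0.03 (SE 0.09, 95% interval -0.16 to 0.23). The interval leaves out a difference as large as that of *Nid1*.

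The beta chain genes had the narrowest intervals beside *Lamc1*. *Lamb1*, the beta chain of many endothelial laminins, had a median of 40.9 CPM in the CIE rats (range 30.6 to 43.3) and 41.4 CPM in the Control rats (range 35.2 to 44.5). CIE rat 6 had the lowest *Lamb1* value of all rats, although it had the highest of its group in 8 other genes. *Lamb2*, a beta chain that also occurs at synapses and in larger vessels, had a median of 45.1 CPM (range 42.5 to 54.75) and 48.15 CPM (range 43.1 to 53.3). The log2 fold changes were -0.03 (95% interval -0.22 to 0.16) for *Lamb1* and -0.04 (95% interval -0.21 to 0.13) for *Lamb2*, and that of *Lamb1* was 0.039 without CIE rat 6.

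The 4 alpha chain genes mark different sources of laminin. *Lama4* and *Lama5* are the alpha chains of endothelial laminins. *Lama4* ran from 16.3 to 23.3 CPM (median 19.98) in the CIE rats and from 17.05 to 27.9 CPM (median 22.5) in the Control rats, with 1 CIE rat below every Control rat. *Lama5* ran from 10.8 to 20.9 CPM (median 15.6) and from 10.9 to 18.95 CPM (median 14.8). Their log2 fold changes were -0.20 (95% interval -0.45 to 0.05) and 0.07 (95% interval -0.27 to 0.40), and that of *Lama5* changed sign in limma-voom (-0.055). Without Control rat 10 *Lama4* was at -0.27 and passed the nominal threshold in edgeR's test, and without Control rat 7 it was at -0.14.

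*Lama2*, the alpha chain that pericytes and astrocytes add to the outer vascular basement membrane, ran from 6.46 to 10.7 CPM (median 8.48) in the CIE rats and from 8.60 to 13.7 CPM (median 9.14) in the Control rats. CIE rats 1, 3 and 5 lay below every Control rat, and Control rat 8 lay above all others. *Lama1*, the alpha chain of the pial and perivascular membrane, ran from 9.92 to 15.9 CPM (median 12.3) and from 7.04 to 14.75 CPM (median 11.2), with 2 CIE rats above every Control rat. The log2 fold change of *Lama2* was -0.24 (95% interval -0.55 to 0.07), and -0.11 without Control rat 8. That of *Lama1* was 0.21 (95% interval -0.13 to 0.55), 0.11 without Control rat 10, 0.14 without CIE rat 6 and 0.096 in limma-voom. With a surrogate variable in edgeR's fit *Lama1* was at 0.31 and passed the nominal threshold, which neither gene did in the fit without it.

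**Figure D3:**
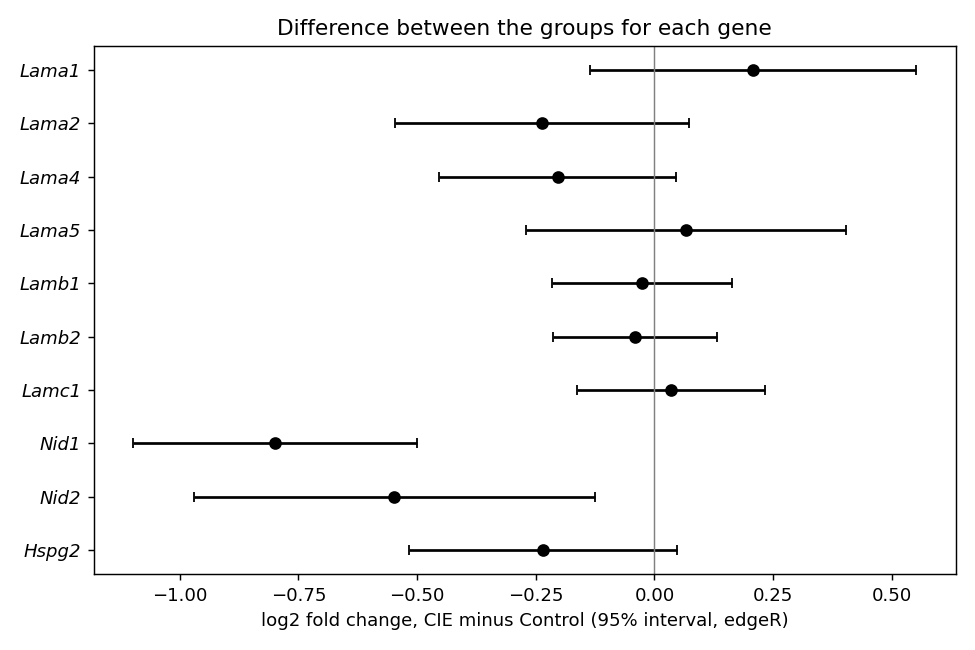
Log2 fold change of each gene (horizontal axis, CIE minus Control) with its 95% interval from the edgeR fit on 12 rats. The intervals of *Nid1* (-1.10 to -0.50) and *Nid2* (-0.97 to -0.13) end below 0, and the other 8 intervals include 0.

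A ratio of counts of a pair of genes within a rat does not depend on how libraries are scaled, and 4 ratios were compared between the groups by two-sided exact permutation tests, which cannot give a p value below 0.00216 for 6 rats against 6. The *Nid1*/*Lamc1* ratio, nidogen-1 to the laminin chain it binds, had a lowest of 0.177, a median of 0.225 and a highest of 0.319 in the CIE rats and 0.3465, 0.415 and 0.5002 in the Control rats. The groups did not overlap. The log2 ratio was lower by a difference of -0.85 in the CIE group (exact permutation p = 0.00216, adjusted over the 4 ratios 0.00864), and the difference lay between -0.94 and -0.77 with each rat left out. *Nid1* alone already showed no overlap (log2 fold change -0.80) and *Lamc1* was at 0.03. The ratio therefore largely repeats the *Nid1* difference and is not separate support for it.

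The *Nid1*/*Nid2* ratio did not separate the groups. Its median was 2.85 in the CIE rats (range 2.62 to 4.52) and 3.63 in the Control rats (range 3.21 to 4.04), with 4 CIE rats below and CIE rat 3 above every Control rat. The difference in log2 ratio was -0.21 (exact permutation p = 0.126, adjusted 0.252). Without CIE rat 3 it was -0.32 (exact permutation p = 0.00866, not adjusted over the 4 ratios). With any other single rat left out, the exact permutation p lay between 0.0996 and 0.238. The fit without CIE rat 3 is therefore a description and not support for a difference.

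The *Lamb1*/*Lamb2* ratio had medians of 0.907 (CIE) and 0.811 (Control) with a difference in log2 ratio of 0.02 (exact permutation p = 0.922, adjusted 0.922). The *Lama4*/*Lama5* ratio had medians of 1.18 (CIE) and 1.41 (Control), and 3 of the 6 CIE rats lay below every Control rat. Its difference in log2 ratio was -0.26 (exact permutation p = 0.216, adjusted 0.288), and lay between -0.38 without CIE rat 1 and -0.17 without Control rat 11. Levels of different genes were not ranked, since no transcript lengths were used.

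**Figure D4:**
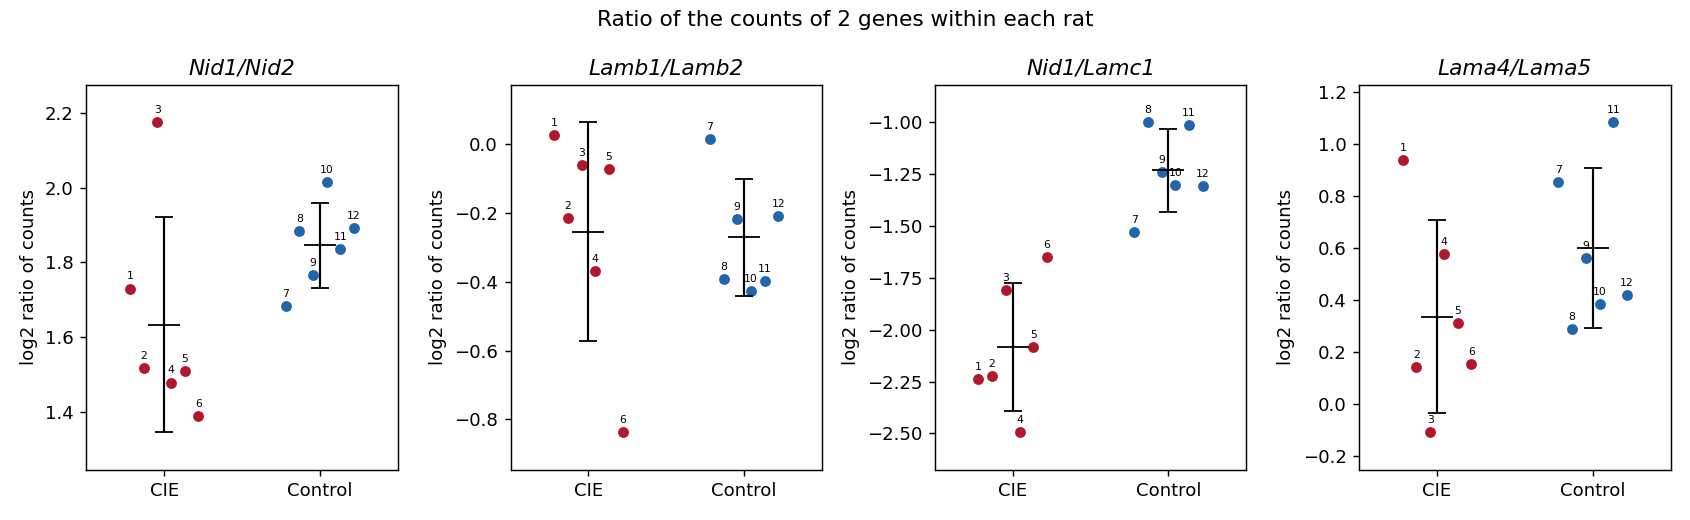
Log2 ratio of the counts of a pair of genes within each rat (vertical axes), for the 6 CIE rats (red) and the 6 Control rats (blue), numbered, with mean ± SD in black. In the *Nid1*/*Lamc1* panel all CIE rats lie below all Control rats, and the other 3 panels show overlap.

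With the group means removed, the 5 genes whose log2 CPM followed *Nid1* most closely over the 12 rats, among 16890 genes of at least 1 CPM, were *Laptm5* (Pearson's r 0.907, Spearman's rho 0.930), RGD1564480 (0.903 and 0.867), *Anxa3* (0.898 and 0.706), *Plekhb1* (0.889 and 0.741) and *Pld4* (0.880 and 0.769). They were chosen as the highest values of all genes, so no test applies, and the points of both genes share their libraries. Without CIE rat 6, r lay between 0.664 (*Pld4*) and 0.844 (*Laptm5*) for these 5 genes. *Laptm5*, a lysosomal membrane protein of immune cells, had a log2 fold change of -0.13 (FDR 0.748 in edgeR's test) and *Pld4*, a microglial nuclease, one of -0.37 (FDR 0.362). Those of RGD1564480, *Anxa3* and *Plekhb1* were 0.01, -0.04 and -0.003. Among the other 9 genes of the set, *Nid2* was nearest to *Nid1* (r 0.803, rho 0.685) and *Lamb1* farthest (r -0.745, rho -0.448). These values rest in part on CIE rat 6: without it, r with *Nid1* was 0.476 for *Nid2*, -0.362 for *Lamb1* and -0.611 for *Lama4*, which was at -0.032 with all rats.

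The other genes of the basement membrane were read from 7 lists. Over all genes tested, 4.31% were lower and 4% higher at a nominal p value below 0.05, and 0.363% passed 5% FDR in edgeR's test. Of 8 collagen genes of the basement membrane, 4 were lower in the CIE group at a nominal p value below 0.05 and none was higher, with a median log2 fold change of -0.36. Those at 5% FDR in edgeR's test were *Col4a1*, a chain of the common collagen IV trimer, at -0.69 (SE 0.09, FDR 0.00675) and *Col4a5*, a chain of a more restricted trimer, at -0.43 (SE 0.08, FDR 0.0328). *Nid1*, which binds collagen IV, had a log2 fold change of -0.80 beside these values. Of 5 other laminin-type genes, none passed the nominal threshold in edgeR's test, and their median was -0.10.

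Among 18 further basement membrane proteins, 3 were lower and 1 was higher at a nominal p value below 0.05, with a median of -0.00016. The higher gene was *Tinagl1*, a matrix protein of vessel walls, with 9.95 ± 2.33 CPM (SD, n = 6) in CIE rats against 6.67 ± 0.619 CPM (SD, n = 6) in Control rats (log2 fold change 0.58, SE 0.14, FDR 0.148 in edgeR's test). Among the lower genes, *Npnt*, an integrin ligand that was read from the row LOC686753, had a log2 fold change of -0.49 (FDR 0.337) and *Vwa1*, a perlecan-binding protein, one of -0.21 (FDR 0.478). None of the 18 passed 5% FDR.

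Of 17 genes for laminin receptors and their partners, 1 was lower and 1 was higher at a nominal p value below 0.05, near the shares over all genes tested. None passed 5% FDR in edgeR's test. The lower gene was *Itgb1*, the beta chain of most laminin-binding integrins (log2 fold change -0.18, SE 0.07, FDR 0.484). The median was -0.06. Of 12 genes that build the laminin-binding sugar of dystroglycan, *Gmppb* (-0.36, FDR 0.265) and *Pomt1* (-0.22, FDR 0.374) were lower at the nominal threshold, with a median of -0.02. *Gmppb* makes the mannose donor and *Pomt1* adds the first mannose.

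Of 18 enzymes of heparan sulfate, the sugar that perlecan carries, *Hs3st1*, a sulfotransferase, and *Sulf2*, a sulfatase outside the cell, were lower at a nominal p value below 0.05, with log2 fold changes of -0.50 (FDR 0.337 in edgeR's test) and -0.28 (FDR 0.575), and the median was -0.02. Of 8 matrix proteases, 2 were lower at the nominal threshold, and *Mmp14*, a membrane-bound collagenase, was the 1 at 5% FDR (log2 fold change -1.49, SE 0.11, FDR 2.64e-05). The median of the list was -0.10. The lists were chosen with results of these data known, so their counts are a description.

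**Figure D5:**
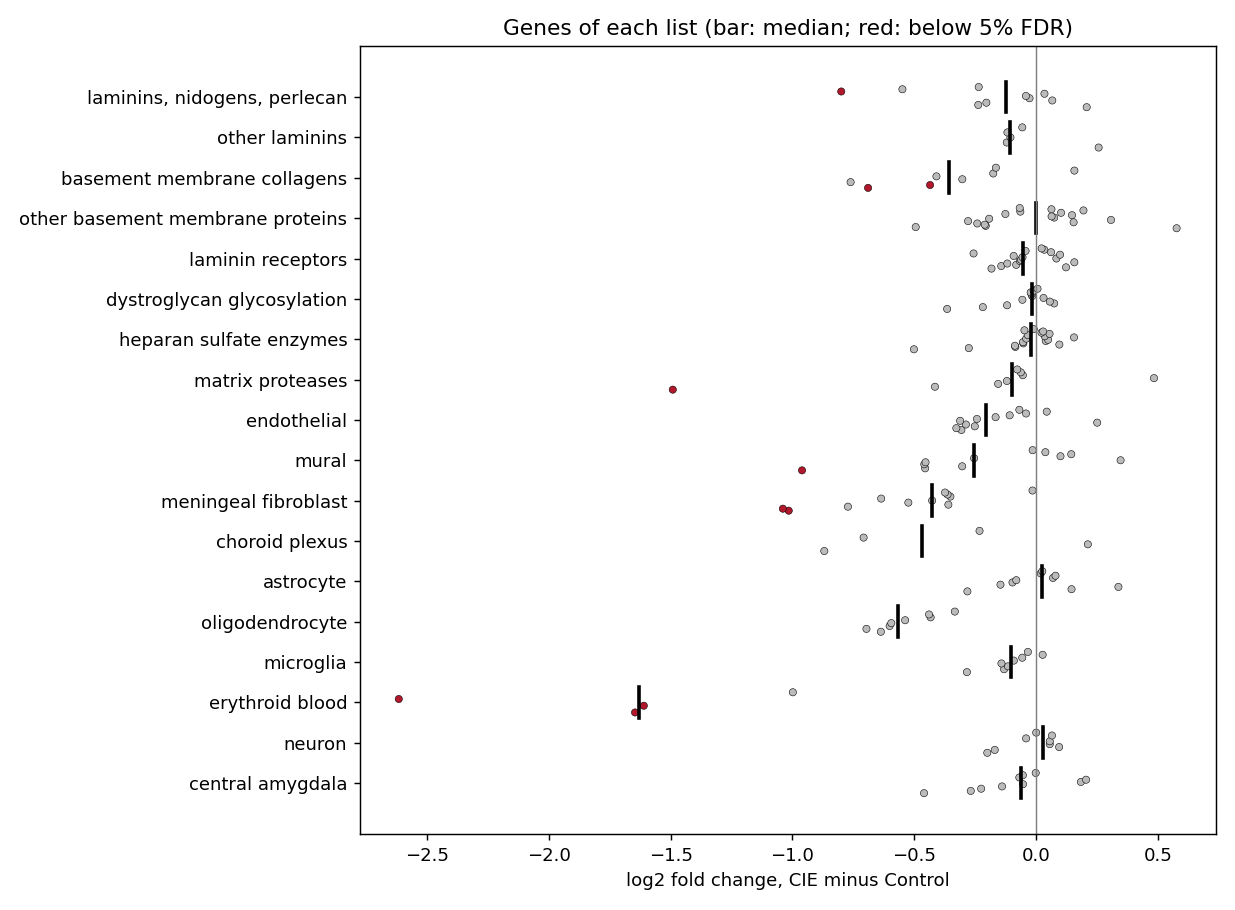
Log2 fold change (horizontal axis, CIE minus Control) of each tested gene of the 10-gene set, of the 7 lists of related genes and of the 10 marker lists, with the median as a bar and genes below 5% FDR in red. The basement membrane collagens (median -0.36) lie lower than the laminin receptors (median -0.06), and the erythroid list (median -1.63) lies lowest.

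Marker lists were read against the 4.31% of all genes tested that were lower and the 4% that were higher at a nominal p value below 0.05. Of all genes tested, 0.258% were lower at 5% FDR in edgeR's test. A further measure, no overlap with the CIE group below, held for 0.554%, and 49.7% had a log2 fold change below 0. Of 11 meningeal fibroblast markers 5 were lower at a nominal p value below 0.05 and 2 at 5% FDR (*Igf2*, -1.02, and *Col1a1*, -1.04, in edgeR's test). Their summed level ranged from 43.2 to 92.4 CPM in the CIE rats and from 98.5 to 148.7 CPM in the Control rats, without overlap, and none of the markers was at 0 in every rat. *Igf2* (mean 24.1 CPM in CIE rats against 48.8 CPM in Control rats) and *Col1a1* (12.2 against 25.1 CPM) made up the largest parts of this sum. All 11 markers had a log2 fold change below 0, from -1.04 to -0.01 (*Dcn*), and 2 of them showed no overlap between the groups. Of 11 tested mural cell markers 5 were lower at the nominal threshold, among them *Kcnj8* (-0.96, FDR 0.0300) and *Pdgfrb* (-0.45, FDR 0.0758). Only 7 of the 11 had a log2 fold change below 0 (median -0.25), and the highest was that of *Des* (0.35). The mural sums were 165.7 to 269.4 CPM and 208.1 to 236.6 CPM, and *Myh11* was listed at 0 in every rat and is missing from these sums. Of 12 endothelial markers 4 were lower and 1 was higher, with sums of 293.7 to 384.8 CPM and 314.9 to 399.7 CPM, and 10 of the 12 had a log2 fold change below 0 (median -0.20). The lower endothelial genes were *Pecam1* (-0.31), *Tek* (-0.33), *Flt1* (-0.25) and *Cdh5* (-0.29), the higher one was *Abcb1a* (0.25), and none passed 5% FDR in edgeR's test. In the fibroblast, mural and endothelial sums CIE rat 6 was the highest CIE rat, as it was for 8 of the 10 genes, *Nid1* and *Nid2* among them. This was not particular to these lists, since it was also highest in the astrocyte, oligodendrocyte and microglial sums. The part of fibroblasts, mural cells and endothelial cells in the *Nid1* and *Nid2* values was not tested. In bulk tissue fewer cells of a type and less RNA per cell cannot be told apart.

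Of 10 astrocyte markers 1 was lower and 2 were higher at the nominal threshold, with sums of 3171 to 3734 CPM in the CIE rats and 3095 to 3524 CPM in the Control rats. Of 8 oligodendrocyte markers 7 were lower (sums of 5378 to 13150 CPM and 8241 to 15450 CPM) and of 8 microglial markers 1 was lower (264.7 to 348.9 CPM and 304.5 to 355.9 CPM). All 4 erythroid genes were lower at the nominal threshold and 3 of them at 5% FDR in edgeR's test. In all 4 the groups did not overlap, and the sums were 89.4 to 284.9 CPM and 361.1 to 660.5 CPM. Over all genes tested, 0.258% were lower at 5% FDR and 0.554% showed no overlap with the CIE group below. For 8 neuronal markers the sums were 4212 to 4647 CPM and 4037 to 4617 CPM, and for the 10 central amygdala markers 1580 to 4104 CPM and 1593 to 4788 CPM, with 1 lower gene in each list. Of 8 choroid plexus markers 4 were tested, none passed the nominal threshold in edgeR's test, their sums were 4.97 to 9.72 CPM and 5.37 to 8.85 CPM, and *Ttr* and *Kcnj13* were listed at 0 in every rat. Whether the zeros of *Ttr*, *Kcnj13* and *Myh11* reflect expression or the naming and counting of genes was not tested, so they do not show that these cells were absent. The part of any of these cells in the values of the laminin, nidogen and perlecan genes was not tested.

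Without CIE rat 6, a setting in which 5.2% of 21093 genes were lower at a nominal p value below 0.05 and 0.616% were lower at 5% FDR, 5 of the 10 genes were lower at the nominal threshold and 2 at 5% FDR. The former were *Nid1*, *Nid2*, *Hspg2* (log2 fold change -0.31), *Lama2* (-0.32) and *Lama4* (-0.26), and the latter *Nid1* and *Nid2*. CIE rat 6 was singled out after its values in these genes were seen. It had the highest CIE value in each of these 5 genes, so leaving it out lowers their CIE means. With any other single rat left out, 2 or 3 of the 10 genes passed the nominal threshold. These counts are therefore a description and not separate support.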

How the data were processed

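RNA-Seq was done on CeA punches of 12 rats, 6 per group. Per the study's methods, BWA aligned the paired-end libraries to Rnor_6.0 and HTSeq counted aligned reads per gene. The authors deposited these raw counts with 1 column per rat. Whether a read pair or a single read made a count is not given. The gene annotation, the versions of BWA and HTSeq and the strand and overlap settings are not given in the sources used here, so reads of overlapping genes may be shared or lost. Groups come from the treatment labels. Tests across genes used edgeR 4.0.16 under R 4.3.3 (TMM, filterByExpr, quasi-likelihood F test, no covariates, two-sided, Benjamini-Hochberg over 20944 genes). SE is the absolute log2 fold change over the root of F. The study used DESeq2, here an alternative (1.42.0), beside limma 3.58.1 and sva 3.50.0. Ratios were tested in Python 3.11.15 with scipy 1.17.1. On counts simulated for 20944 genes with 200 changed by a log2 fold change of 1, edgeR recovered 148 and called 8 unchanged genes.

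The members and lists were chosen with earlier results of these data known. All members are named; from each related list, genes at 5% FDR, otherwise up to 3 with the smallest nominal p value below 0.05, except 1 gene that is not reported here. Markers named in the text were picked from their lists after the values were seen. Of the listed genes, 7 matched by RefSeq gene ID or synonym instead of symbol. Alternatives are other scalings and filters, DESeq2, limma-voom, a surrogate variable and leaving out each rat. Each library came from a separate rat and was used as its own replicate. As a mean over genes, counts of any pair of libraries of a group had 17.5 to 215 times the variance of Poisson sampling. Depth was 39082548 to 95647601 counts per rat. Levels were not set per transcript length, since the tables used here give none. Correlations with *Nid1* without CIE rat 6 were added after the data were seen. Promoter sequences are from RefSeq (GRCr8), with 8 of the 10 genes matched.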

Additional observations from a re-analysis of the deposited data

Results flagged for a closer look

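Values of 28 groups of 6 rats (10 genes and 4 ratios in both groups) were screened for a rat far from the others of its group, and 3 were found. Chance gives about 1 in 20 groups. *Nid1* in CIE rat 6 was at 23.1 CPM, where the other CIE rats lay between 12.9 and 16.0 CPM. *Lamb1* in the same rat was at 30.6 CPM, where the others lay between 40.6 and 43.3 CPM, so this rat was high in one gene and low in the other. *Lama2* in Control rat 8 was at 13.7 CPM, where the other Control rats lay between 8.60 and 9.60 CPM. The cause was not tested in any of these.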

How the results depend on the processing

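Over all genes, 286 genes passed 5% FDR with DESeq2 and 234 with limma-voom with sample quality weights, against 76, and 3596 passed the nominal threshold with limma-voom, against 1740. Leaving out single rats gave 34 to 154 genes at 5% FDR, with the fewest when Control rat 9 and the most when CIE rat 6 was absent, and moves of over 1.5 times also for CIE rats 1, 2 and 4 and Control rats 8 and 11. The nominal count was then 1347 to 2811, the most when CIE rat 3 was absent. *Nid1* kept its sign and a nominal p value below 0.05 in all 19 alternatives and its place below 5% FDR in 12 of them, the 7 losses all with a rat left out. *Lama5* changed sign in limma-voom (-0.055), and *Lamc1* with a surrogate variable (-0.0035). With a rat left out *Lama5* ranged from -0.028 to 0.15, *Lamb1* from -0.058 to 0.039 and *Lamc1* from -0.0092 to 0.083, and their sign was not stable. The difference in log2 ratio ranged from -0.32 to -0.16 for *Nid1*/*Nid2*, from -0.38 to -0.17 for *Lama4*/*Lama5* and from -0.039 to 0.13 for *Lamb1*/*Lamb2*. The cause was not tested. No paired analysis was possible because the rat numbers do not repeat between the groups. At 224 counts, the fewest for any of the 10 genes, counting error was 6.68% if each count is independent, below the spread between rats.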
